A study of Mus musculus with 9 samples.

Results

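Rsad2 and 8 further interferon-induced genes were followed across 9 skeletal muscles of the mouse. The 9 genes were taken from a list (Rsad2, Oas1g, Oas2, Ifit1, Ifit3, Irf7, Isg15, Usp18 and Ifi44) that was drawn up because Rsad2 was higher in the arrays of head muscles and Oas1g in the array of triceps. A probe set annotated to exactly 1 gene symbol was found for 8 of the 9, each with 1 such probe set, among 22180 genes measured in all. Ifi44 had no such probe set and was not analysed here.

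The muscles came from male C57BL/6J mice aged 12 weeks, with no treatment or genetic change named, and C57BL/6J is an inbred laboratory strain. Masseter and digastric stand for the head (n = 2). Soleus, gastrocnemius, rectus femoris and tibialis anterior stand for the hindlimb (n = 4), and triceps, supraspinatus and trapezius for the shoulder and forelimb (n = 3). Each muscle had 1 array, the regions rest on general anatomy, and each SD is a spread between different muscles, so that differences between muscles, animals and arrays cannot be told apart. The values are log2 expression values on which 1 unit is a 2-fold difference, and the median probe set of an array lay between 3.34 and 3.44, and levels below that range are called low here. Of the 8 members, 5 had a mean at or above the median gene. The array is a whole-tissue measurement, in which fewer cells of a type and less RNA per cell cannot be told apart.

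Muscle identity was checked only by markers. All 12 skeletal muscle markers had means above the median gene, and Myh7, the slow myosin heavy chain gene, was at 11.62 in soleus and at most 8.64 in the other 8 arrays. The spread of values over probe sets was narrower in 3 arrays (triceps, rectus femoris and gastrocnemius, SD 1.919 to 1.957) than in the other 6 (SD 2.033 to 2.077). Values within these sets are given below for the members and for the lists whose triceps or head counts are described.

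Interferons are secreted proteins, and those of type I are released when cells sense foreign nucleic acid. Type I interferons act on the receptor of Ifnar1 and Ifnar2 and, through the kinases Jak1 and Tyk2, lead to binding of a complex that holds Stat2 and Irf9 at the interferon-stimulated response element in the promoters of target genes. Type II interferon, the product of Ifng, acts through its own receptor. Target genes are transcribed at low levels in resting tissue and many are induced together.

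The members differ in the letters upstream of their start sites. These are shown first for Rsad2, high in head arrays, and Oas1g, high in triceps. They follow for the other members that hold the element more than once. Windows from RefSeq (GRCm38.p6) were found for 7 of the 9 members. The 10-base core GAAANNGAAA was searched on both strands, with overlapping matches counted, in the 250 bases before each start site. It was present in 5 of these 7 members (Rsad2, Oas1g, Ifit1, Ifit3 and Isg15), and in 936 of all 27025 genes with a window (3.46%). Irf7 and Ifi44 had no match in this window. Capitals mark the matches, and each sequence is written 5′ to 3′ on the strand of its gene. The first is Rsad2, chr12:26456453-26456702, minus strand, with 1 match that begins 120 bases before the start site. The others are Oas1g, chr5:120887614-120887863, minus strand, with 2 overlapping matches, the nearer beginning 12 bases before the start site, Ifit1, chr19:34640770-34640828, plus strand, with 2 matches, Ifit3, chr19:34583358-34583431, plus strand, with 2 matches, and Isg15, chr4:156200860-156200911, minus strand, with 3 overlapping matches.
Rsad2: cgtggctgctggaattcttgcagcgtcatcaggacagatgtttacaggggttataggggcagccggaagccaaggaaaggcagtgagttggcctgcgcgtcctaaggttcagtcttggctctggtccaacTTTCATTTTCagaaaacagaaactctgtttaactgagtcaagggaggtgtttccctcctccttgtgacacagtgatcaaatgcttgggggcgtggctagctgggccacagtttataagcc
Oas1g: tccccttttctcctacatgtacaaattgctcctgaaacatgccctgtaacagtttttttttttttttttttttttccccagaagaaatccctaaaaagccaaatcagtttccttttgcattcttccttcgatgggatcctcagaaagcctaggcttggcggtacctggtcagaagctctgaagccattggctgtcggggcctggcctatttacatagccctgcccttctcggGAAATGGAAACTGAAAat
Ifit1: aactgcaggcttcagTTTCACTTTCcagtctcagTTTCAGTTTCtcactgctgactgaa
Ifit3: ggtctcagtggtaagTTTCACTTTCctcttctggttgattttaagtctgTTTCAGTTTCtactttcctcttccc
Isg15: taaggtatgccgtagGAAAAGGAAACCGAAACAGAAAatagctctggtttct
The element was thus written upstream of the gene that was high in head muscles and of genes that were high in triceps. A match describes these letters and is not evidence that a factor was bound.

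Rsad2 was the member that stood out in the head muscles. It encodes viperin, a radical SAM enzyme that makes a nucleotide which stops viral RNA synthesis. Its log2 level was 5.10 in masseter and 5.16 in digastric. In hindlimb muscles it was 3.76 in rectus femoris, 3.98 in tibialis anterior, 3.92 in soleus and 3.95 in gastrocnemius, and in shoulder and forelimb muscles 3.76 in trapezius, 3.90 in supraspinatus and 4.15 in triceps. Both head arrays lay above all 7 others, by at least 0.96. The 7 others spanned only a small range, with triceps highest among them. The mean was 5.13 ± 0.04 (SD, n = 2) in head muscles and 3.92 ± 0.13 (SD, n = 7) in the others, a log2 difference of 1.22 or 2.32-fold. This difference chose the gene and is given as a description without a test. Among the 6 arrays of wider range, the 2 head arrays lay 1.24 above the mean of the 4 others.

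No other measured member had both head arrays above the 7 others. The count was 1 of 8 for a pattern that 6.28% of all genes showed. Cmpk2, a nucleotide kinase gene of mitochondria that neighbours Rsad2 on chromosome 12, read 4.65 in masseter and 4.88 in digastric, against 4.29 to 4.78 in hindlimb and 4.47 to 5.01 in shoulder and forelimb muscles. The head levels of Cmpk2 fell inside the range of the others, and its highest array was triceps. No core was found in its own window.

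**Figure D1:**
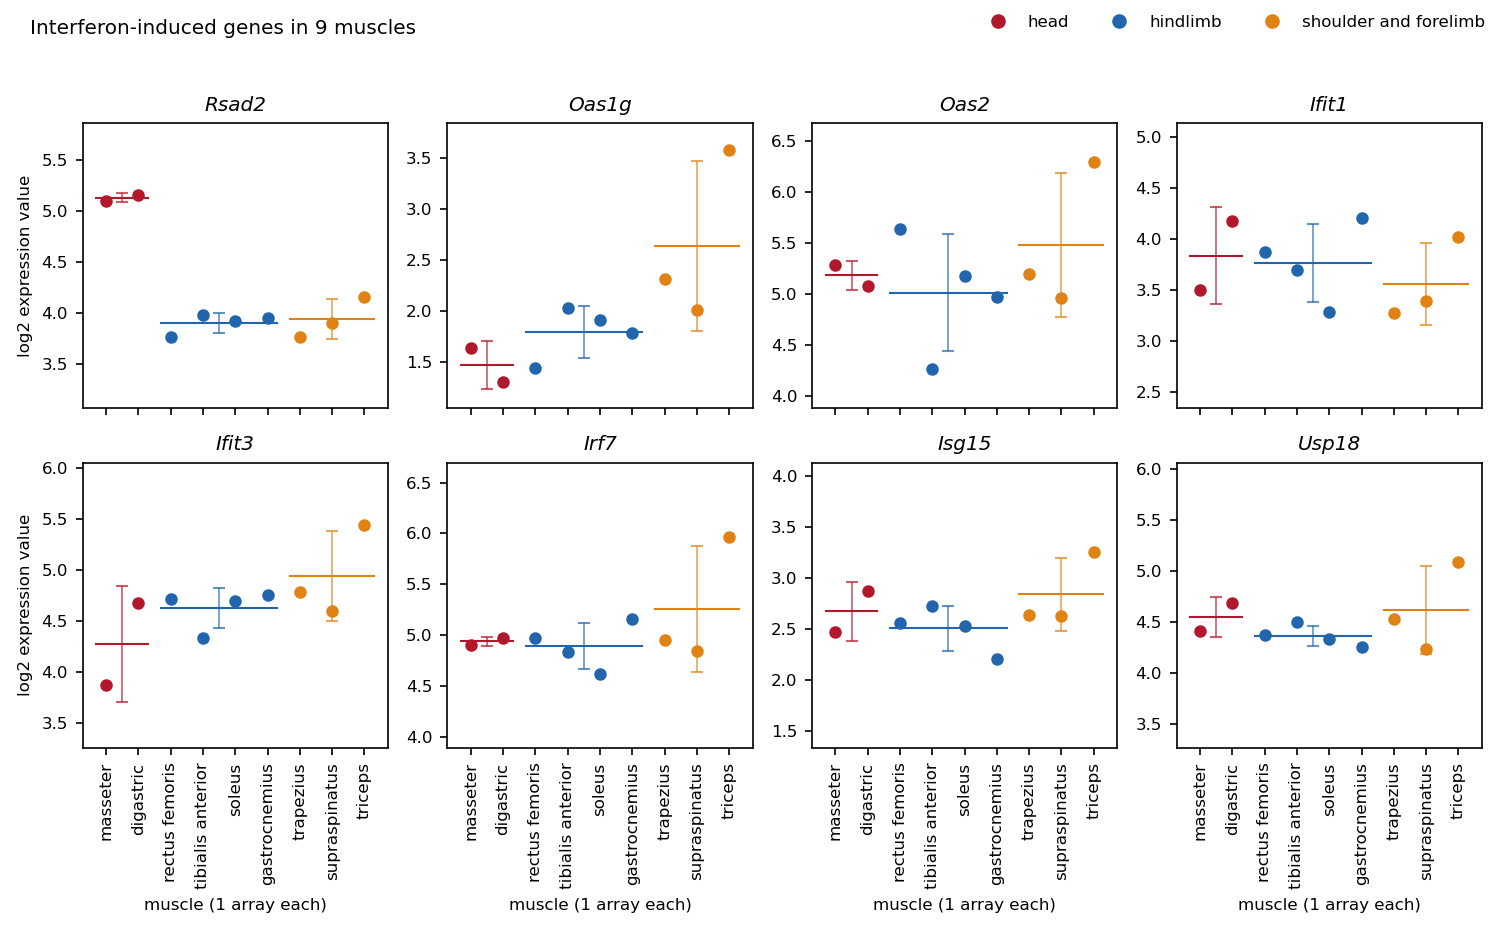
Log2 expression value (vertical axis, a window of equal height in each panel) of the 8 measured members in the 9 muscles (horizontal axis, 1 array each), with points coloured by region, horizontal lines at the region means and bars of 1 SD between muscles. Rsad2 is high in both head arrays (5.10 and 5.16) and from 3.76 to 4.15 elsewhere, while 6 of the other 7 genes have their highest point in triceps.

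The oligoadenylate synthetases Oas1g and Oas2, enzymes that detect double-stranded RNA and make the messenger that activates RNase L, were highest in triceps. Oas1g was at 3.58 in triceps, and at 1.63 in masseter, 1.30 in digastric, 1.44 in rectus femoris, 2.03 in tibialis anterior, 1.91 in soleus, 1.78 in gastrocnemius, 2.31 in trapezius and 2.01 in supraspinatus. Triceps stood 1.27 above the next array, trapezius, and 1.78 above the mean of the other 8 arrays (3.43-fold). This value chose Oas1g and has no test, and all arrays other than triceps lay below the median probe set. A further probe set, annotated to both Oas1a and Oas1g, its near relative, was left out by the rule. It read 4.27 in triceps and from 2.59 to 3.63 in the other 8 arrays, so that triceps was highest there as well.

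Oas2 was at 6.29 in triceps. The other arrays read 5.28 in masseter, 5.08 in digastric, 5.64 in rectus femoris, 4.26 in tibialis anterior, 5.17 in soleus, 4.97 in gastrocnemius, 5.19 in trapezius and 4.96 in supraspinatus. Triceps was 0.65 above the next, rectus femoris, and 1.22 above the mean of the 8, while tibialis anterior was lowest. Among other genes of the family, Oasl2 was at 5.49 in triceps against 4.05 to 4.60 elsewhere, and Oas3 at 4.38 in triceps against 3.73 to 4.55. Oas1b was at 3.44 in triceps and 3.46 in gastrocnemius. Oasl1 and Oas1c read 3.54 and 2.16 in triceps, each below the mean of the other 8 arrays. The family therefore did not follow 1 pattern.

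Irf7 encodes a transcription factor that drives the genes of type I interferons and is itself induced by them. Irf7 was at 5.97 in triceps and between 4.62 (soleus) and 5.16 (gastrocnemius) in the other 8 arrays, with 4.91 in masseter, 4.97 in digastric and rectus femoris, 4.84 in tibialis anterior, 4.95 in trapezius and 4.85 in supraspinatus. The other 8 arrays were close together (SD 0.15, n = 8) and triceps was 1.06 above their mean. Irf9, a DNA-binding subunit of the activating complex, was at 6.08 in triceps and 5.13 to 5.80 elsewhere. Stat2 was at 5.60 in triceps against 4.53 to 5.10.

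Isg15, a ubiquitin-like protein attached to other proteins, and Usp18, the protease that removes it and also restrains the type I receptor, ran closely together. Isg15 was at 3.26 in triceps, and at 2.47 in masseter, 2.88 in digastric, 2.56 in rectus femoris, 2.73 in tibialis anterior, 2.53 in soleus, 2.21 in gastrocnemius, 2.64 in trapezius and 2.63 in supraspinatus. Usp18 was at 5.09 in triceps, and at 4.41 in masseter, 4.69 in digastric, 4.37 in rectus femoris, 4.50 in tibialis anterior, 4.33 in soleus, 4.26 in gastrocnemius, 4.53 in trapezius and 4.24 in supraspinatus. Both genes had triceps first and digastric second. Their Pearson r over the 9 arrays was 0.91 (Spearman rho 0.77), and r was 0.76 over the 8 arrays without triceps. All Isg15 levels lay below the median probe set.

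Ifit1 and Ifit3 encode proteins with tetratricopeptide repeats that bind foreign RNA or the proteins that do so, and they are neighbours on chromosome 19. Ifit3 was at 5.44 in triceps, and at 3.87 in masseter, 4.68 in digastric, 4.72 in rectus femoris, 4.33 in tibialis anterior, 4.70 in soleus, 4.76 in gastrocnemius, 4.79 in trapezius and 4.60 in supraspinatus. Ifit1 was at 4.02 in triceps, and at 3.50 in masseter, 4.17 in digastric, 3.87 in rectus femoris, 3.69 in tibialis anterior, 3.28 in soleus, 4.20 in gastrocnemius, 3.27 in trapezius and 3.39 in supraspinatus. Ifit3 thus had its lowest value in masseter, the array in which Rsad2 was high. Ifit1 differed from the rest in that gastrocnemius and digastric lay above triceps. The close relatives Ifit2 and Ifit3b were at 3.50 and 3.06 in triceps, their highest arrays, against 2.62 to 3.41 and 1.84 to 2.69 in the other arrays. Ifit3b was low in every array.

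Over all, triceps was the highest array for 6 of the 8 measured members (Oas1g, Oas2, Ifit3, Irf7, Isg15 and Usp18), and the same 6 lay at least 0.5 log2 units above the mean of the other 8 arrays. Over all genes the shares were 14.0% and 7.17%. The median triceps difference over the 8 members was 0.78, from -0.05 for Rsad2 to 1.78 for Oas1g, against a median of 0.02 over all genes. Oas1g was chosen on this array, the list was drawn up with such values in view, and there is 1 triceps array, so that these counts describe the array and carry no test. Against the other 2 arrays of narrower range alone, triceps was above both for 7 of the 8 members, with a median difference of 0.83, against 36.7% of all genes with a median of 0.02. Ifit1 was the exception at -0.02. The mouse that gave the triceps and the muscle itself cannot be told apart as sources of this difference.

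**Figure D2:**
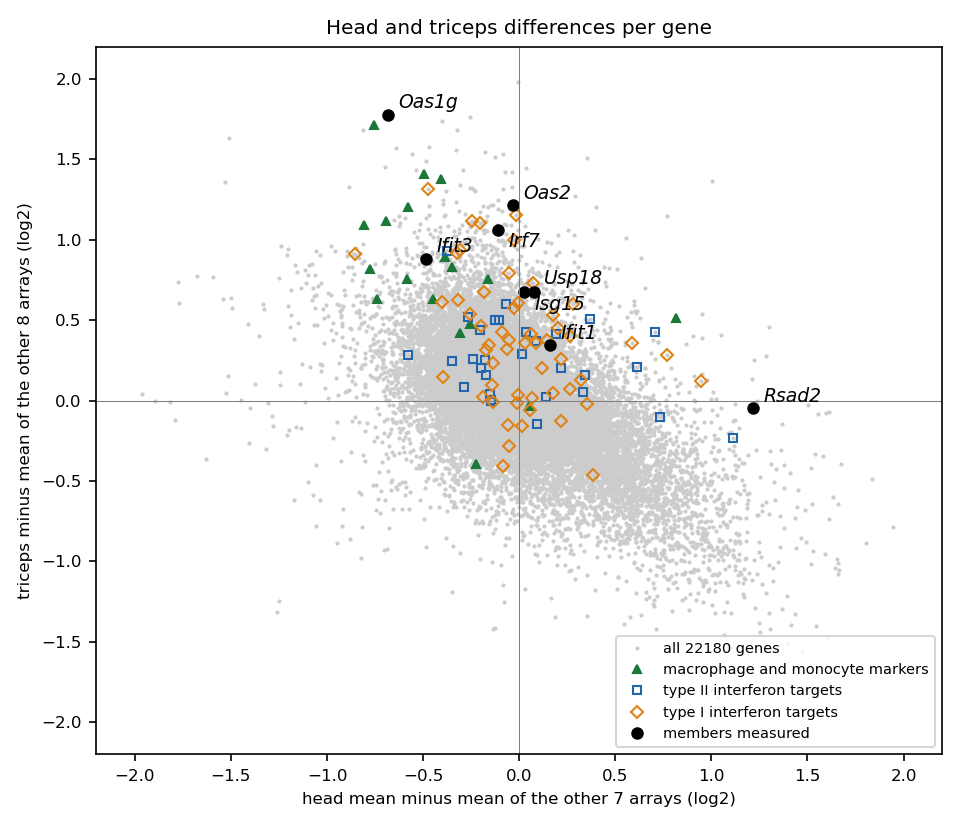
Each point is a gene, placed by its head mean minus the mean of the other 7 arrays (horizontal axis, log2) and by triceps minus the mean of the other 8 arrays (vertical axis, log2). Rsad2 lies at the right (1.22 and -0.05) and Oas1g at the top left (-0.68 and 1.78), with 13 genes outside the plotted range.

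The pairs of members were compared over the 9 arrays as a description, since all values share the same arrays. For the 21 pairs without Rsad2 the median Pearson r was 0.59, with 20 of 21 positive, and it was -0.03 over the 8 arrays without triceps, with 10 of 21 positive. The positive median of these pairs therefore rested on the triceps array, though not every pair did. Without triceps r ran from -0.69 for Oas1g with Ifit1 to 0.76 for Isg15 with Usp18. It was 0.71 for Ifit1 with Irf7, against 0.54 over the 9 arrays. For the 7 pairs of Rsad2 with another member the median r was 0.02, from -0.42 with Ifit3 to 0.28 with Ifit1. Without the 2 head arrays that median was 0.57 (n = 7 arrays), with all 7 pairs positive. Triceps, at 4.15, was the highest of these 7 arrays for Rsad2 too, against 3.76 to 3.98 in the others. These r values therefore also draw on the triceps array, and r without both triceps and the head was not computed.

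Region means were compared in 1 limma fit over all 22180 genes with Benjamini-Hochberg adjustment. The head arrays chose Rsad2, so the head comparisons are read as descriptions. In head against hindlimb muscles 0 of 8 members passed, where 0.00902% of all genes did. The 1 of 8 with an unadjusted p under 0.05 was Rsad2, the gene chosen on head arrays (11.9% of all genes had such a p). The member differences ran from -0.35 (Ifit3) to 1.23 (Rsad2) with a median of 0.12, against -0.04 over all genes. The Ifit3 difference was 0.05 without masseter and -0.76 without digastric. Only Rsad2 had regions without overlap, in a comparison where 21.2% of genes did. In head against shoulder and forelimb muscles 0 of 8 passed, as did 0% of all genes. An unadjusted p under 0.05 was found for 3 of 8 members and for 6.92% of all genes. The 3 were Rsad2 and Oas1g, chosen on head and triceps values, and Ifit3, so this count carries no test. The differences ran from -1.16 (Oas1g) to 1.20 (Rsad2) with a median of -0.23, against -0.04 over all genes. Rsad2 and Oas1g did not overlap there, where 29.9% of genes did not. Their differences were opposite in sign, with Oas1g at 1.47 ± 0.23 (SD, n = 2) in head and 2.63 ± 0.84 (SD, n = 3) in shoulder and forelimb muscles. Without triceps the Oas1g difference was -0.69.

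Hindlimb muscles set against those of the shoulder and forelimb involve no head array, so the 7 members other than Oas1g were tested there, although triceps lies on one side. None of the 7 passed (limma adjusted p = 1 for each), against 0.00451% of all genes called. An unadjusted p under 0.05 was found for 0 of the 7 and for 3.65% of all genes. No member had regions without overlap, against 4.62% of genes. Rsad2 was level between the regions, at 3.90 ± 0.10 (SD, n = 4) in hindlimb and 3.93 ± 0.20 (SD, n = 3) in shoulder and forelimb muscles, a difference of -0.03 (SE 0.14). Of the 7, 6 had negative differences. Isg15 differed by -0.33 (SE 0.20), Irf7 by -0.36 (SE 0.26), Oas2 by -0.47 (SE 0.36), Ifit3 by -0.31 (SE 0.25) and Usp18 by -0.26 (SE 0.20), all within the spread between muscles, while Ifit1 differed by 0.20 (SE 0.26). Without the triceps array the Irf7 difference was -0.01, that of Usp18 -0.02, that of Oas2 and Ifit3 -0.07 and that of Isg15 -0.12. The Ifit1 difference was 0.43 without triceps and 0.05 without trapezius or without gastrocnemius.

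Beyond the members, 54 other type I interferon targets were measured, from a list chosen with earlier results of these data known. Triceps was the highest array for 25 of them (46.3%, against 14.0% of all genes), and their median triceps difference was 0.36. Against the other 2 arrays of narrower range, triceps was above both for 38 of the 54 (70.4%, against 36.7% of all genes). Of the 54, 34 had a mean at or above the median gene. In the limma fit 0 of the 54 passed in any of the 3 comparisons of regions, and an unadjusted p under 0.05 was found for 4 in head against hindlimb (11.9% of all genes), 4 in head against shoulder and forelimb (6.92% of all genes) and 5 in the third comparison (3.65% of all genes). Those with the largest triceps differences were Epsti1, at 5.08 in triceps and 3.32 to 4.02 elsewhere, Oasl2, and the nucleic acid sensor gene Zbp1, at 5.15 against 3.71 to 4.37. Bst2, whose product tethers budding virus at the cell surface, was at 6.17 in triceps against 4.95 to 5.34 elsewhere. Mx1, a dynamin-like GTPase gene that was low in every array, was at 2.81 against 1.63 to 2.27. Not all targets shared this. Ifi27, the member of this list with the largest range, was at 7.69 in trapezius and from 4.66 to 6.15 in the other arrays, and Ifitm2 and Oas1c had their lowest value in triceps.

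**Figure D3:**
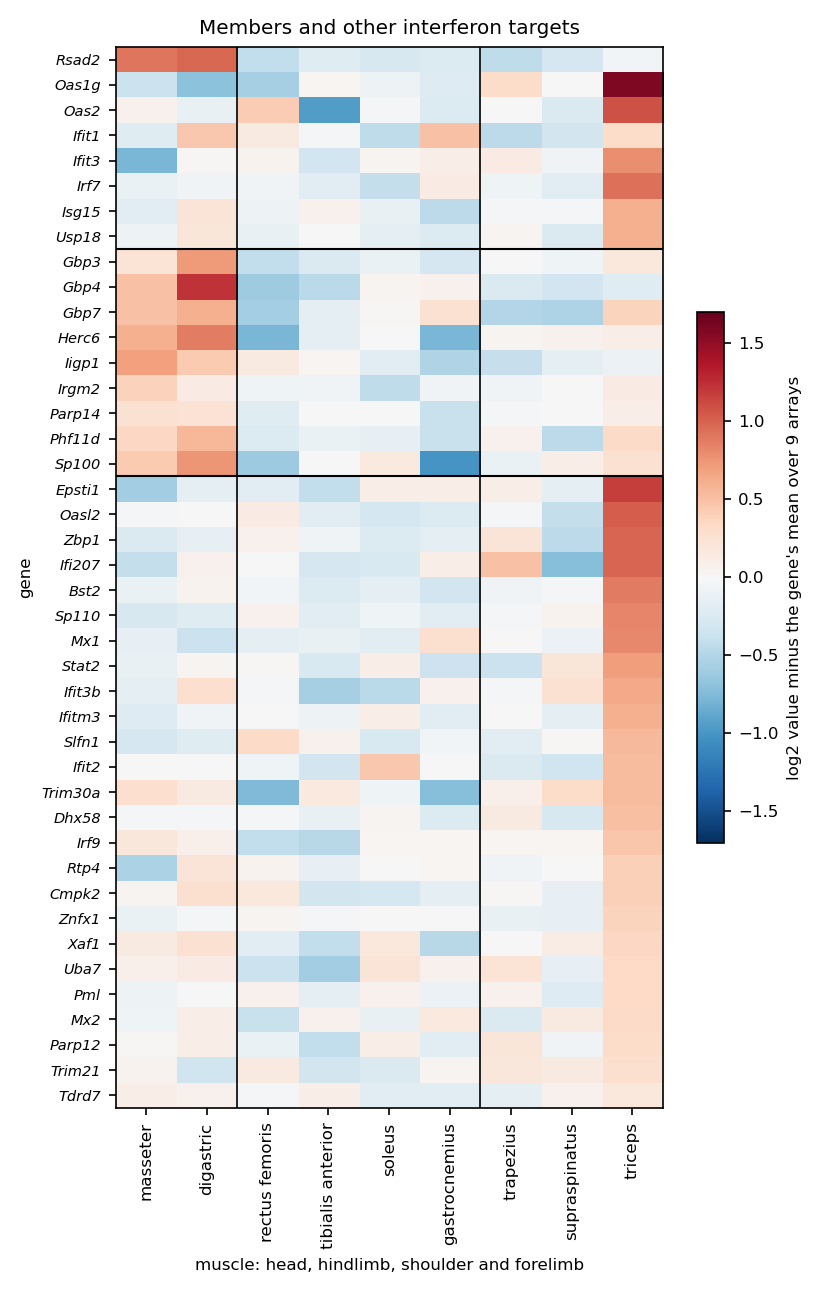
Log2 value minus the mean of the gene over the 9 arrays (colour), with muscles in columns by region and genes in rows. The top block holds the 8 members, the middle block the 9 type I and type II targets with both head arrays above the 7 others, and the bottom block the 25 type I targets highest in triceps, so that the lower blocks show genes chosen for these patterns.

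Upstream of the targets, 22 genes of the interferons and their receptors were measured. Of these, 2 were highest in triceps (9.09%, a share near the 14.0% of all genes), Ifna14 and Ifnab, which belong to a family of close copies. Against the other 2 arrays of narrower range, triceps was above both for 10 of the 22 (45.5%), where 36.7% of all genes were. Of the 22, 10 had a mean at or above the median gene. Ifnb1 was low throughout, at 2.21 in triceps and 1.60 to 2.58 elsewhere. Ifng was at 3.24 in triceps and 3.10 to 3.39 elsewhere, near or below the median probe set, with the same 3.24 in every hindlimb array. Levels this low limit what these readings show. The receptor genes Ifnar1 and Ifnar2 were at 6.49 and 6.41 in triceps, inside the range of the other arrays (5.66 to 6.71 and 5.92 to 6.79). Among 18 nucleic acid sensors and adaptors, 9 were highest in triceps, including Tlr7 at 3.73 against 2.71 to 3.32 and Tlr9 at 4.73 against 3.68 to 4.47, and 4 of 13 signalling genes were (Stat2, Irf8, Socs1 and Irf9). Triceps was above both other arrays of narrower range for 14 of these 18 and 7 of these 13 genes. The 13 signalling genes had a median triceps difference of 0.02, as had all genes. Ptpn2, Jak2 and Irf2 differed by -0.86, -0.63 and -0.55 in triceps from the mean of the other 8 arrays. Both head arrays lay above the 7 others for Tbk1 among the 18 (5.56%) and Ptpn2 among the 13 (7.69%), against 6.28% of all genes. Among the 6 arrays of wider range the head counts were 1 of 18 and 2 of 13, against 8.93%. These lists share genes with the type I targets.

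Some targets of type II interferon were highest in triceps and others in both head arrays. Of 30 measured, triceps was above both other arrays of narrower range for 18 (60%, against 36.7% of all genes). It was the highest of all 9 arrays for 10 (33.3%, against 14.0% of all genes). The 10 include the antigen presentation genes H2-K1, Tap1 and Psmb9, with H2-K1 at 6.84 in triceps and 5.65 to 6.50 elsewhere. Another 5 had both head arrays above the 7 others (16.7%, against 6.28% of all genes), namely Gbp3, Gbp4, Gbp7, Iigp1 and Irgm2, all of them interferon-inducible GTPases. Over the list, 14 of the 30 had a head mean above the mean of the other 7 arrays. The median head difference of the list was -0.09, against -0.04 over all genes. Gbp4, low in every array, read 2.53 in masseter and 3.26 in digastric against 1.42 to 2.10 in the others. Gbp7 was at 5.07 and 5.17 against 3.99 to 4.95. Iigp1 was at 4.48 and 4.24 in these 2 head arrays against 3.29 to 3.95. Among type I targets 4 of 54 had this pattern (7.41%), Herc6, Parp14, Phf11d and Sp100, with Herc6, an ISG15 ligase gene of the mouse, at 4.42 and 4.69 in masseter and digastric and 3.04 to 3.92 elsewhere. None of these genes passed in limma. Among the 6 arrays of wider range, both head arrays lay above the 4 others for 5 of the 30 type II targets (16.7%). The same held for 6 of the 54 type I targets (11.1%) and for 8.93% of all genes.

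The genes most like Rsad2 over the 9 arrays by Pearson r, among 5545 genes of at least median level and spread, were Gbp9 (r = 0.94), Fhod3 (0.94), Crybb1 (0.93), Malt1 (0.93) and Scfd1 (0.93). Gbp9, a guanylate-binding protein gene, was at 5.58 in masseter and 5.85 in digastric and from 4.46 to 5.10 elsewhere, and its r with Rsad2 was 0.84 over the 7 arrays without the head. For Scfd1 that r was 0.70, for Crybb1 0.57, for Fhod3 0.47 and for Malt1 0.12. The genes most like Oas1g were Nudt14 (r = 0.92), Clec4f (0.92), Cd68 (0.89), Tub (0.88) and Sp110 (0.86). Clec4f and Cd68 are expressed in macrophages, and Sp110 belongs to the interferon targets. Without triceps r was 0.72 for Clec4f, 0.71 for Cd68 and 0.24 for Sp110.

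Some markers of other cells were also high in triceps or in a head array, and their part in the results was not tested. Macrophage and monocyte markers were highest in triceps for 15 of 18 genes (83.3%, against 14.0% of all genes). Triceps was above both other arrays of narrower range for 17 of 18 (94.4%, against 36.7% of all genes). The median triceps difference of these markers was 0.79. Among them were Fcgr1 at 5.38 against 3.17 to 4.36, Adgre1 at 5.33 against 3.62 to 4.25 and Cd68 at 6.52 against 4.86 to 5.85. The mean log2 deviation of this list from the mean of each gene was 0.70 in triceps and from -0.47 (masseter) to 0.21 (rectus femoris) in the other arrays. In rectus femoris, the next array for these markers, 3 of the 8 members lay above their own mean over the 9 arrays, against 7 in triceps. Oas2 was second in rectus femoris, while Oas1g at 1.44 was the second lowest. Lymphocyte markers were highest in triceps for 2 of 14 genes (14.3%), neutrophil markers for 1 of 9 (11.1%) and dendritic cell markers for 0 of 8. The first 2 shares were near the 14.0% of all genes. Triceps was above both other arrays of narrower range for 4, 1 and 1 of these genes, where 36.7% of all genes were. Only 1 of the 14 lymphocyte, 0 of the 9 neutrophil and 2 of the 8 dendritic cell markers had a mean at or above the median gene. For macrophage and monocyte markers 15 of 18 did. Low levels limit what the counts of the other 3 lists show. Siglech, a marker of plasmacytoid dendritic cells, which are strong producers of interferon, was at 3.24 in triceps and 2.81 to 3.33 elsewhere.

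In the head arrays, endothelial markers were higher than the mean of the other 7 for 9 of 10 genes. The median difference was 0.58, against -0.04 over all genes. Both head arrays lay above the 7 others for 2 of the 10 (20.0%, against 6.28% of all genes). Among the 6 arrays of wider range, they lay above the 4 others for 2 of the 10, against 8.93% of all genes. The median head difference of the endothelial markers there was 0.38, against -0.01 over all genes. The mean deviation of this list was 0.29 in masseter, 0.54 in digastric and 0.53 in soleus, and between -0.55 and 0.14 in the other arrays. Rsad2 was at 3.92 in soleus, against 5.10 in masseter and 5.16 in digastric. The neutrophil list had a mean deviation of 1.11 in digastric, -0.44 in masseter and 0.56 in rectus femoris, and S100a8 read 1.54 in masseter and 4.60 in digastric, with no other array above 2.76. Of 13 salivary gland markers, 9 had a head mean above the mean of the other 7 arrays, with a median difference of 0.25. Both head arrays lay above the 7 others for 2 of the 13 (15.4%, against 6.28% of all genes). Among the 6 arrays of wider range, they lay above the 4 others for 3 of the 13 (23.1%, against 8.93% of all genes), with a median difference of 0.33. Only 3 of the 13 had a mean at or above the median gene. Bpifa2 was at 3.74 in masseter and 5.16 in digastric and at most 2.99 elsewhere, and Klk1 reached 7.28 in masseter but no more than 1.93 in any other array. The macrophage list had a mean deviation of -0.47 in masseter and -0.14 in digastric, against -0.26 in tibialis anterior and -0.18 in gastrocnemius.

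**Figure D4:**
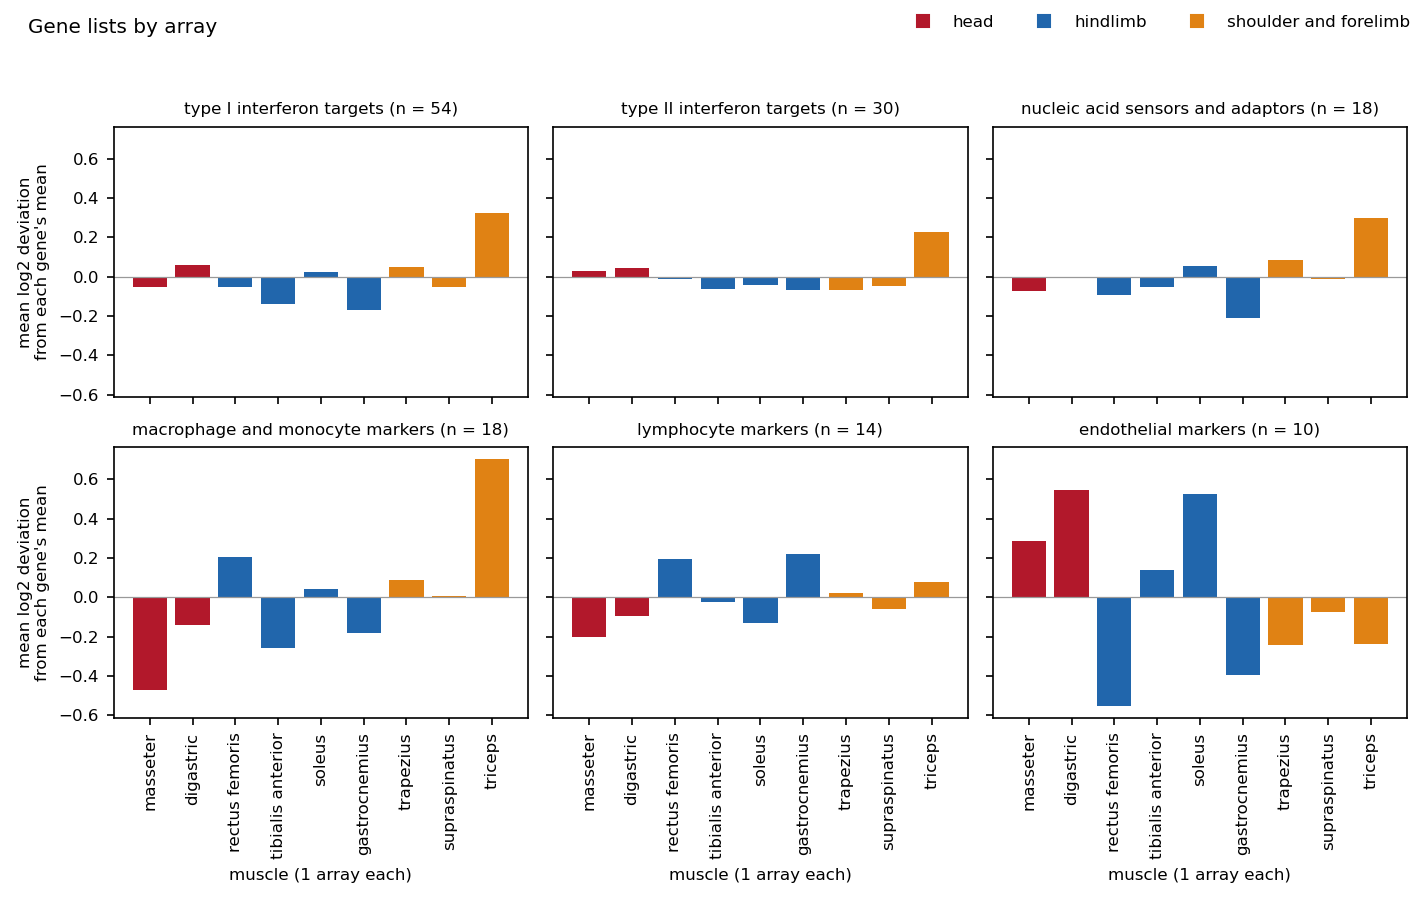
Mean log2 deviation of 6 gene lists from the mean of each gene over the 9 arrays (vertical axis) by muscle (horizontal axis, 1 array each, coloured by region), with the number of measured genes in each panel title. Macrophage and monocyte markers (0.70) and type I targets (0.32) are highest in triceps, and endothelial markers are high in digastric, soleus and masseter.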

How the data were processed

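Total RNA of 9 mouse muscles was hybridised to whole-transcript GeneChip arrays, per the labels' protocols. Each probe set has a deposited log2 value in every array, and GCRMA, a background correction and normalization between arrays, is named without a version in the submitters' processing notes. The labels do not say whether animals were pooled.

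Of 41345 probe sets, 23521 had 1 gene, 1814 several and 16010 none named here. Symbols were updated by Entrez identifier to GRCm38.p6, which matched 23328 of the 23521. The probe set with the highest mean was kept per gene, leaving 22180. Region means were compared with limma 3.58.1 (R 4.3.3) on all 9 arrays, two-sided, at an adjusted p of 0.05, and the procedure was tested on simulated data. No coordinates are given for probe sets, since no build is named for them.

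Members and lists were chosen with earlier results of these data known. Genes were named by rule: every member, any list gene, first Cmpk2, relatives of members and genes of large range, and the 5 genes most like Rsad2 and Oas1g. The number of arrays limits the precision. Alternatives were 3 normalizations, a filter on dim genes, the mean of probe sets, a variance trend with a robust fit, fewer arrays, a term for value range and each array left out in turn.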

Additional observations from a re-analysis of the deposited data

Results flagged for a closer look

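In the hindlimb group of 4 arrays, Ifit3 in tibialis anterior (4.33) lay apart from the 3 other hindlimb arrays (4.70 to 4.76), with a gap of 0.866 of the group's range, over Dixon's 95% critical value for 4 arrays. About 1 group in 20 is marked in this way by chance, and 8 members were examined. Oas2 was also lowest in tibialis anterior, at 4.26 against 4.97 to 5.64 in the other hindlimb arrays, without passing that value.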

How the results depend on the processing

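Of the members, 6 had triceps as the highest array with the deposited values and likewise after median centring, quantile normalization, cyclic loess and with the mean of probe sets, settings added after the data had been seen. For the 54 type I targets the count was 25 to 28. Rsad2 stayed 1.15 to 1.24 higher in head arrays and Oas1g 1.68 to 1.78 higher in triceps under those 4 settings. The number of genes passing in head against hindlimb muscles was 2, and it was 1 with median centring, with a variance trend and robust fit, with only the 2 regions, with value range as a term and with only the 6 arrays of wider range. It ran from 0 to 19 with 1 array left out, reaching 19 without soleus and 0 without masseter. In head against shoulder and forelimb muscles it ran from 0 to 4, with 4 without digastric, and it was 1 throughout for hindlimb muscles against those of shoulder and forelimb. The Rsad2 difference between hindlimb and shoulder and forelimb muscles, -0.03, became 0.12 with only the 6 arrays of wider range, 0.08 without triceps and 0.02 without rectus femoris, and ran from -0.12 to 0.08 with 1 array left out. That of Usp18 became 0.03 with only those 6 arrays and ran from -0.45 to -0.02 with 1 array left out. The cause was not tested. No paired analysis was possible because the labels give no replicate numbers shared between regions. Low signal limits Oas1g and Isg15, whose levels lie below the median probe set in most arrays.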
